A study of Mus musculus with 16 samples.

Results

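The retinoic acid receptors (RARA, RARB and RARG), the retinoid X receptors (RXRA, RXRB and RXRG) and the corepressor NRIP1 were read in H295R tumours after treatment with mitotane, 9-cisRA (9-cis retinoic acid) or both. Members were the probes whose identifier equals 1 of 7 human RefSeq accessions, and 6 of these 7 were on the array, with 8 probes among 34127. No probe carried the listed RARA accession (NM_000964), so RARA was read outside the rule through another of its accessions. H295R is a hormone-producing human adrenocortical carcinoma line, and it was grown as a tumour in male SCID mice, a strain without working T and B lymphocytes. The animals were treated by mouth for 28 days. Controls received corn oil, and the other groups received mitotane, 9-cisRA, or mitotane with 9-cisRA (combined). Cy3-labelled tumour RNA was read on human 1-colour arrays, and every one of 4 slides carried an array from each of the 4 groups. Scanner files of 15 arrays were tested, so combined had n = 3 and the other groups n = 4, and combined replicate 3 was read only in the deposited value table. All tumours derive from 1 cell line, and the labels do not tie arrays to animals, so the spread behind every p-value is that of these samples and may be partly technical.

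RAR and RXR are nuclear receptors, proteins that bind DNA and change the transcription of nearby genes when a ligand occupies them. A RAR binds its response elements as a heterodimer with an RXR, holding corepressors such as NCOR1 without ligand and recruiting coactivators such as the NCOA proteins with it. All-trans retinoic acid binds RARs, whereas 9-cisRA binds RARs and RXRs, and RXRs are also the common partner of the vitamin D, thyroid hormone, PPAR and LXR receptors. RARB and the retinoic acid hydroxylase CYP26A1 are classical genes induced by liganded RARs. Mitotane is an adrenolytic drug used in adrenocortical carcinoma.

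Values are log2 signals relative to the array's 75th percentile, so that 0 is that percentile, and probes of different genes are not set against each other. Control replicate 4 stood apart. Its median correlation with the other arrays was 0.874 against 0.977 to 0.99 for the others, and its 75th percentile was an intensity of 224.2 against 551.5 to 1061. The brightest of its 4 probes for PTPRC, a leukocyte marker, read 5.15, whereas none of the other 14 arrays exceeded -3.09. A second PTPRC probe read -0.87 there against at most -3.53 elsewhere, and the remaining probes read -6.19 and -5.81, close to the highest of the other arrays (-6.37 and -6.00). Combined replicate 4 had 57.9% of probes well above background, the lowest share. Changes against control are therefore given with control replicate 4 and without it. Of 8 adrenocortical markers, 7 or 8 were well above background on each array, and STAR, which carries cholesterol into the mitochondrion, read 4.58 to 6.11. Their summed signal, in multiples of the 75th percentile, was 66.6 to 112 in control replicates 1 to 3, 42.6 in control replicate 4, 62.3 to 100.5 under mitotane, 73.1 to 97.8 under 9-cisRA and 69.4 to 90.5 under combined treatment. This sum is not on the log scale and mostly follows bright markers such as STAR. HSD3B2 averaged -2.50, -2.28, -2.08 and -3.25 in control, mitotane, 9-cisRA and combined arrays, and MC2R -4.81, -4.49, -4.75 and -5.51. MC2R was well above background on 12 of 15 arrays. The combined mean was below the mitotane mean for 7 of the 8 markers and above it for 1. Of the 20216 transcripts tested, 9707 were lower in that comparison. The array of 9-cisRA lay at the same position of every slide, so position and 9-cisRA cannot be told apart.

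Over the whole array, 20216 transcripts passed the filter on dim probes and were tested with limma (two-sided, Benjamini-Hochberg adjustment), and no transcript had an adjusted p under 0.05 in any of 6 comparisons (0% each). RARB, RARG, RXRA, RXRB and NRIP1 passed the filter and RXRG did not. RARB passed it through mitotane and 9-cisRA, the groups in which all arrays measured it, and the other 4 were well above background on all 15 arrays. At an unadjusted p under 0.05 (limma), mitotane against control called 1 of the 5 members, RXRA, and 6.04% of all transcripts (1221). For 9-cisRA against control it was 1 of 5, RARG, and 3.51% (710). For combined against control it was 2 of 5, RARG and RXRA, and 13.8% of all transcripts (2787). No member was called for combined against mitotane (4.75% of all, 960), combined against 9-cisRA (9.47%, 1915) or the interaction of both agents (3.71%, 751). With 5 members these counts do not set the group apart from the array. Limma was also run with arrays weighted by their quality, which gave weights of 0.035 to control replicate 4 and 8.81 to control replicate 2. Control replicates 1 and 3 had 1.24 and 0.96, so control rested mostly on replicate 2. Combined against control then called 3 of 5 members at an adjusted p under 0.05 (RARB, RARG and RXRA), as it did 28.6% of all transcripts. Leaving out control replicate 4 without weights called 0 transcripts.

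**Figure D1:**
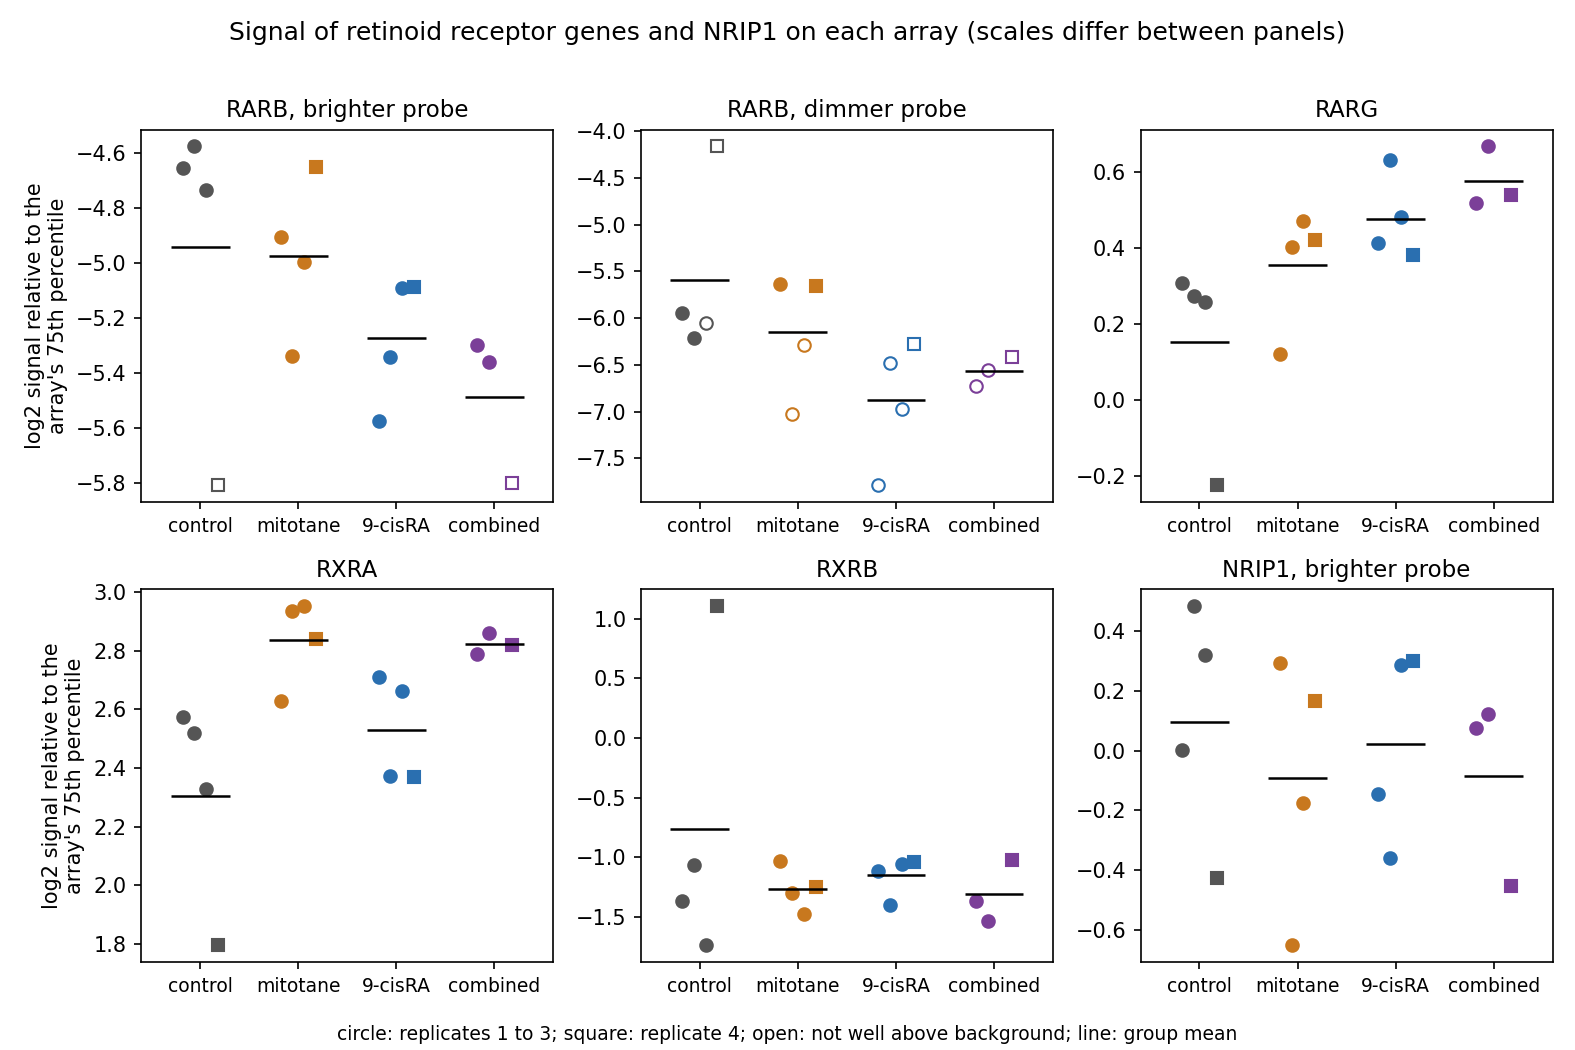
Log2 signal relative to the array's 75th percentile (y) for each array, by treatment group (x), with circles for replicates 1 to 3, squares for replicate 4, open symbols for arrays where the probe was not well above background, and lines for group means. RXRA lay above all 4 controls on every mitotane and combined array, RARG on every 9-cisRA and combined array, and control replicate 4 is the lowest or highest control in each panel.

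RARB (NM_000965) was dim in these tumours. It read lower under 9-cisRA and combined treatment than in control replicates 1 to 3, but not lower than control replicate 4, and no comparison passed the adjusted threshold. Its brighter probe read -4.65, -4.57, -4.73 and -5.81 in control replicates 1 to 4. Under mitotane the values were -4.91, -5.34, -5.00 and -4.65. Under 9-cisRA they were -5.57, -5.34, -5.09 and -5.09. Combined replicates 1, 2 and 4 read -5.30, -5.36 and -5.80. Control replicate 4 and combined replicate 4 gave the lowest readings, and they were the arrays on which the probe was not well above background, so it was measured on 13 of 15 arrays. Control replicate 4 lay at the bottom of all arrays, which makes the control group overlap with 9-cisRA and combined treatment. Mitotane overlapped with controls 1 to 3 as well, through its replicate 4.

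With all arrays the log2 change of RARB was -0.03 ± 0.26 (SE) under mitotane, -0.33 ± 0.26 under 9-cisRA (adjusted p = 0.744) and -0.54 ± 0.28 under combined treatment (adjusted p = 0.399, limma). Leaving out control replicate 4, the control mean was -4.65 ± 0.08 (SD, n = 3), and every 9-cisRA and combined array lay below every control. Non-overlap in that direction was seen in 3.16% of all transcripts for 9-cisRA and in 8.87% for combined treatment. The log2 change was then -0.62 ± 0.18 for 9-cisRA (1.54-fold lower, adjusted p = 0.98) and -0.83 ± 0.19 for combined treatment (1.78-fold lower, adjusted p = 0.148), both with an unadjusted p under 0.05. At an unadjusted p under 0.05 that fit called 4.34% of all transcripts for 9-cisRA and 18.3% for combined treatment. Mitotane differed from controls 1 to 3 by -0.32 (adjusted p = 0.617), where 7.68% of transcripts were called. Combined differed from mitotane by -0.51 ± 0.28 with all arrays (adjusted p = 1), and the same difference had an unadjusted p under 0.05 (adjusted p = 0.301) once control replicate 4 no longer entered the shared spread, with 11.5% of transcripts called. When combined replicate 4 was left out as well, the changes were -0.62 (adjusted p = 0.909) for 9-cisRA and -0.67 (adjusted p = 0.367) for combined treatment. Combined then differed from mitotane by -0.36 (adjusted p = 0.611), and the unadjusted p of that difference was above 0.05. With normexp background correction and quantile normalisation of all arrays, the changes against control shrank to -0.05 for 9-cisRA and -0.10 for combined treatment. Which step of that processing shrank them was not tested.

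On slides 1, 2 and 3, RARB under 9-cisRA was -0.92, -0.77 and -0.36 from the control array of the same slide, and on slide 4 it was 0.72. Combined treatment differed by -0.64 and -0.79 on slides 1 and 2 and by 0.01 on slide 4. Mitotane differed by -0.25, -0.76 and -0.26 on slides 1 to 3 and by 1.16 on slide 4. The sign thus turned on the slide that holds control replicate 4. Combined replicate 3, in the value table, read -0.06 relative to the probe's median over 16 arrays, below control replicates 1 to 3 at 0.51, 0.57 and 0.42 in that table.

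A second, dimmer RARB probe was well above background on 2 of 4 control and 2 of 4 mitotane arrays, and on 0 of 4 9-cisRA and 0 of 3 combined arrays. Its control mean exceeded the measurable limit of the 9-cisRA arrays, giving at least 1.37-fold higher signal in control. That bound came from control replicate 4, at -4.16 while not well above background, and no bound above 1 remained without it. The brighter and the dimmer probe correlated at r = 0.67 over the 14 arrays without control replicate 4 and at r = 0.08 over 15, given as a description.

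RARG (NM_000966), the RAR type best known from skin, was slightly higher under 9-cisRA and combined treatment, by an amount that did not pass the adjusted threshold. Control replicates 1 to 4 read 0.31, 0.27, 0.26 and -0.22. Mitotane arrays read 0.12, 0.40, 0.47 and 0.42. The 9-cisRA arrays read 0.41, 0.63, 0.48 and 0.38, and the combined arrays 0.52, 0.67 and 0.54. Every 9-cisRA and every combined array lay above every control, while mitotane overlapped with control through replicate 1.

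For RARG the log2 change was 0.32 ± 0.14 under 9-cisRA (1.25-fold, 95% interval 1.01 to 1.55, adjusted p = 0.744, limma). Such non-overlap, higher under 9-cisRA, held for 1.67% of all transcripts. Under combined treatment the change was 0.42 ± 0.16 (1.34-fold, interval 1.06 to 1.69, adjusted p = 0.273), and 12.7% of transcripts showed the same non-overlap. Mitotane differed by 0.20 ± 0.14 (adjusted p = 0.713). Combined arrays also lay above all mitotane arrays, as did 6.54% of transcripts, with a difference of 0.22 (adjusted p = 1). The groups stayed apart when control replicate 4 was dropped, as then held for 3.75% of transcripts (9-cisRA, higher) and 20.2% (combined, higher). The changes were then 0.20 (adjusted p = 0.98) for 9-cisRA and 0.30 (adjusted p = 0.216) for combined treatment, of which only the second kept an unadjusted p under 0.05. All 4 within-slide differences of 9-cisRA from control were above 0 (0.11, 0.36, 0.22 and 0.60), as were those of combined treatment (0.21, 0.39 and 0.76). In the value table combined replicate 3 had the highest RARG value of the 16 arrays, 0.39.

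Of the 8 markers for other cell types on the array, the fibroblast collagens COL1A1 and COL1A2 lay above all controls in the same groups as RARG. Such non-overlap, higher than control, held for 1.67% of all transcripts under 9-cisRA and 12.7% under combined treatment. COL1A1 read 3.09 to 3.49 in control, 3.71 to 5.68 under 9-cisRA, 4.38 to 4.90 under combined treatment and 1.42 to 4.93 under mitotane. COL1A2 read 2.26 to 2.49 in control, 3.13 to 4.77 under 9-cisRA and 3.24 to 3.42 under combined treatment. ACTA2, the actin of smooth muscle and myofibroblasts, overlapped with control, at -0.70 to 1.38 in control, 0.01 to 0.66 under 9-cisRA and -0.52 to -0.31 under combined treatment. KDR, VWF and CD68 overlapped with control in both groups too. Their means in control, 9-cisRA and combined were -4.46, -4.50 and -4.34 (KDR), -5.07, -5.49 and -5.68 (VWF), and -5.95, -6.03 and -5.71 (CD68). Without control replicate 4, KDR differed from control by 0.18 under 9-cisRA and 0.35 under combined treatment. VWF and CD68 were well above background on 9 and 5 of 15 arrays. PTPRC differed from control by -2.02 under 9-cisRA and by -2.35 under combined treatment with all arrays, and by 0.36 and 0.03 without control replicate 4. The summed signal of the 8 markers was 15.3, 16.6 and 17.6 in control replicates 1 to 3 and 53.5 in control replicate 4. It was 5.24 to 48.0 under mitotane, 23.1 to 80.3 under 9-cisRA and 31.1 to 41.5 under combined treatment. Every 9-cisRA and combined array thus lay above controls 1 to 3, and the groups overlapped through control replicate 4. The sum adds signals that are not on the log scale, so it mostly follows the brightest markers. These were the collagens on every array but control replicate 4, where PTPRC was brightest at 5.15. The sum therefore does not show that the 8 markers moved together. Between 4 and 7 of the 8 were well above background per array, and PECAM1, which defines endothelium, was not on any array. The part of other cells in the RARG values was not tested. In bulk tumour RNA, fewer cells of a type and less RNA per cell cannot be told apart, and a human probe reads mouse host RNA only where it cross-hybridises.

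RARA, read by NM_001024809 outside the rule, showed no separation of groups. Its brighter probe averaged -0.67 ± 0.28 (SD, n = 4) with corn oil and -0.78 ± 0.18 (SD, n = 4) with mitotane. The averages were -0.81 ± 0.12 (SD, n = 4) with 9-cisRA and -0.84 ± 0.17 (SD, n = 3) with both agents. The control range, -1.03 to -0.34, spanned all other arrays. The log2 changes were -0.11, -0.14 and -0.17 (adjusted p = 0.798, 0.751 and 0.654, limma), and -0.10, -0.13 and -0.16 without control replicate 4. The other RARA probe read 0.36 on control replicate 4 and -1.33 to -1.07 on the other controls.

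RXRA (NM_002957), the RXR type found in most epithelia, was higher under mitotane and under combined treatment than under corn oil on every array, again short of the adjusted threshold. Control replicates read 2.57, 2.52, 2.33 and 1.80. Mitotane replicates read 2.63, 2.93, 2.95 and 2.84. Values under 9-cisRA were 2.71, 2.37, 2.66 and 2.37, within or just above the range of controls 1 to 3. The combined arrays read 2.79, 2.86 and 2.82, above every control and every 9-cisRA array.

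The log2 change of RXRA under mitotane was 0.53 ± 0.17 (1.45-fold, 95% interval 1.12 to 1.86, adjusted p = 0.713, limma), which placed it 93rd by p among 20216 transcripts. Non-overlap, higher under mitotane, held for 3.56% of all transcripts. Combined treatment differed from control by 0.52 ± 0.18 (1.43-fold, interval 1.09 to 1.88, adjusted p = 0.265), and 12.7% of transcripts showed the same non-overlap. The difference for 9-cisRA was 0.22 ± 0.17 (adjusted p = 0.744). Dropping control replicate 4 lowered the changes to 0.36 ± 0.12 under mitotane (adjusted p = 0.616) and 0.35 ± 0.13 under combined treatment (adjusted p = 0.206), and in both the groups still did not overlap and the unadjusted p stayed under 0.05. Non-overlap in that direction then held for 7.1% of all transcripts for mitotane and 20.2% for combined treatment. The change under 9-cisRA was then 0.05 (adjusted p = 0.99).

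Combined and mitotane arrays differed in RXRA by -0.02, with a 95% interval of -0.41 to 0.38, which leaves room for a moderate difference either way. All combined arrays exceeded all 9-cisRA arrays, as did 11.6% of transcripts, by 0.29 ± 0.18 (adjusted p = 0.705). In the fit without control replicate 4 that difference had an unadjusted p under 0.05 (adjusted p = 0.213), where 19% of transcripts were called. Within slides, mitotane exceeded control by 0.05, 0.41, 0.62 and 1.04, and combined by 0.21, 0.34 and 1.02. Under 9-cisRA the differences were 0.14, -0.15, 0.33 and 0.57, so that 1 of 4 went the other way. Combined replicate 3, in the value table, read -0.05, level with the highest control there at -0.06.

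**Figure D2:**
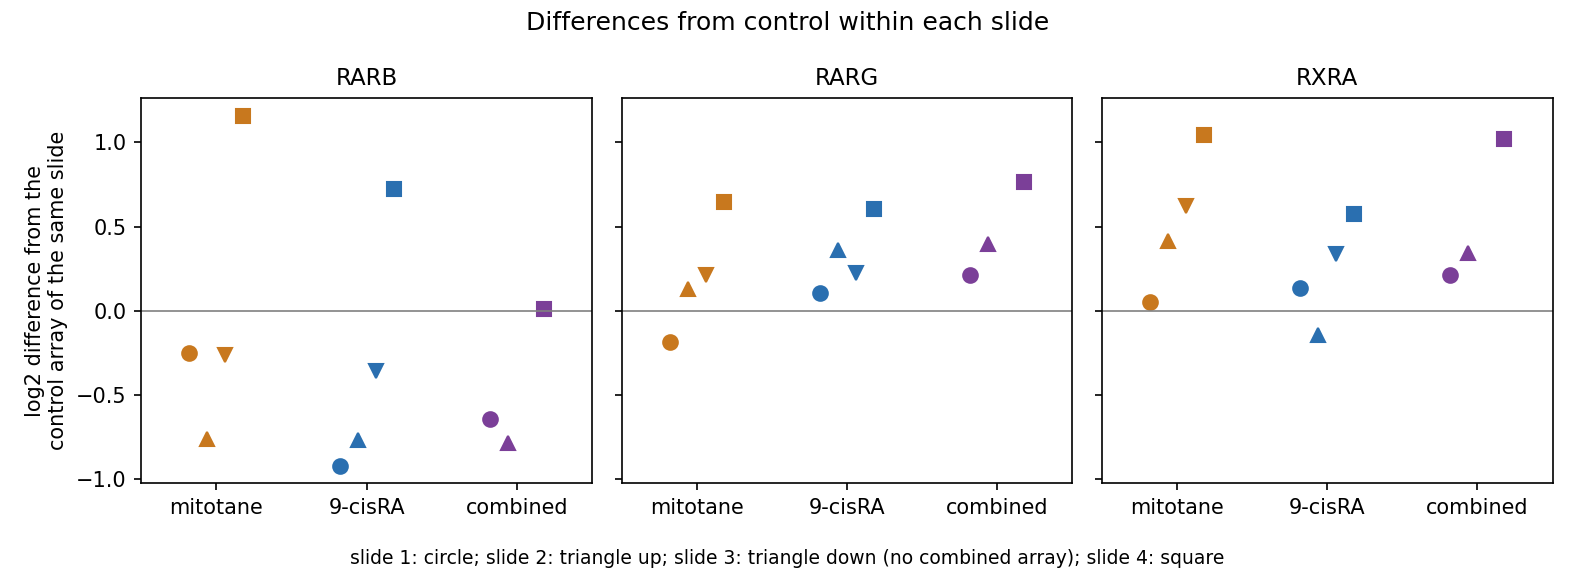
Log2 difference (y) of each treated array from the control array of its own slide, by treatment (x), for RARB, RARG and RXRA, with 1 symbol per slide. RXRA under mitotane and combined treatment and RARG under 9-cisRA and combined treatment lie above 0 on every slide measured, and RARB lies below 0 on slides 1 to 3 and above 0 on slide 4.

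RXRB (NM_021976) gave no difference that survived the loss of 1 array. Control replicate 4 read 1.11, whereas the other controls read -1.37, -1.07 and -1.74. Mitotane arrays lay between -1.48 and -1.04, 9-cisRA arrays between -1.40 and -1.04, and combined arrays between -1.53 and -1.03. With all arrays the log2 changes were -0.50 ± 0.44, -0.39 ± 0.44 and -0.54 ± 0.48 for mitotane, 9-cisRA and combined treatment (adjusted p = 0.727, 0.751 and 0.614, limma). Without that array they were 0.13, 0.24 and 0.08 (adjusted p = 0.79, 0.98 and 0.837), so the sign of each turned.

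RXRG (NM_006917), known from skeletal muscle and parts of the nervous system, was not well above background on any of the 15 arrays. Its probe read an intensity of 2.63 to 9.95. No change is given for it.

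**Figure D3:**
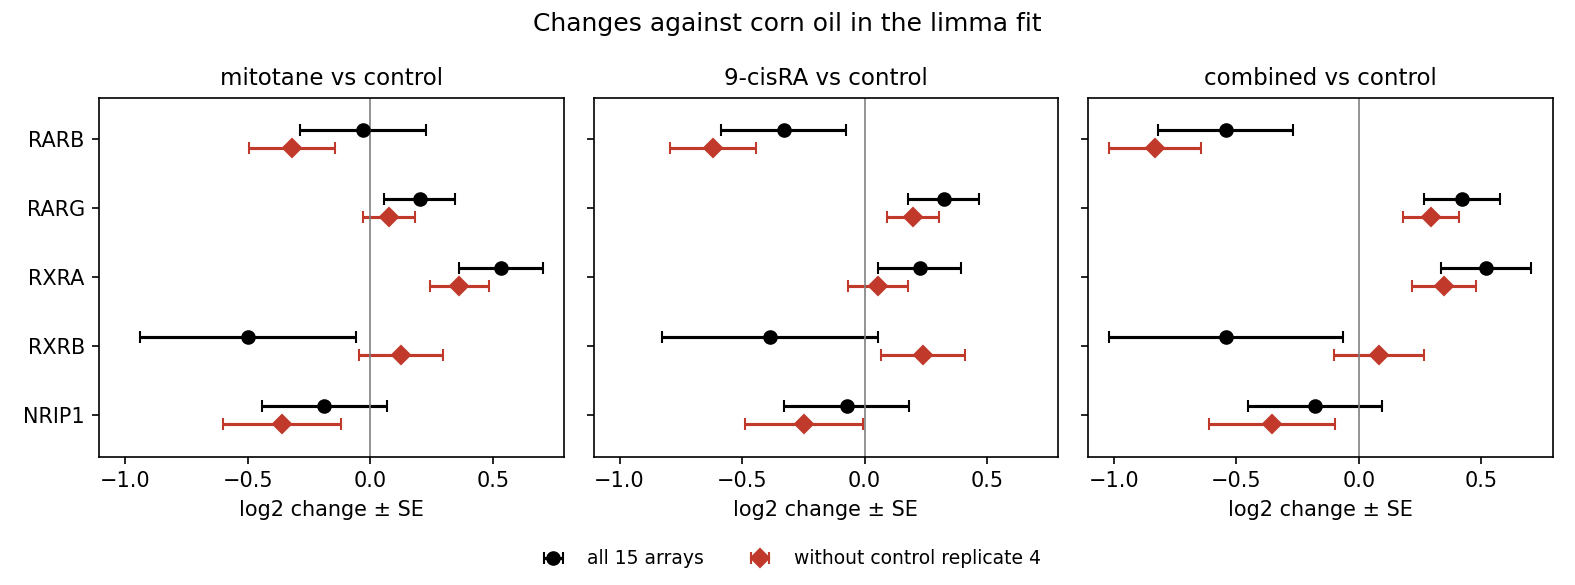
Log2 change against corn oil with its SE (x) for the 5 tested members (y) in the limma fit, with all 15 arrays (black circles) and without control replicate 4 (red diamonds), in 1 panel per treatment. Leaving out that array moves RARB further below 0, brings RXRA and RARG closer to 0, and turns RXRB from below to above 0.

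NRIP1 (NM_003489), also called RIP140, is a corepressor that binds liganded nuclear receptors, RAR and RXR among them. Its groups overlapped throughout. Control replicates of its brighter probe read 0.00, 0.48, 0.32 and -0.43. Mitotane arrays read 0.29, -0.65, -0.18 and 0.17. Arrays under 9-cisRA read -0.14, -0.36, 0.29 and 0.30, and combined arrays 0.08, 0.12 and -0.45. Each group spanned at least 0.58, wider than any difference between group means. The log2 changes were -0.19 ± 0.25, -0.07 ± 0.25 and -0.18 ± 0.27 (adjusted p = 0.791, 0.908 and 0.768, limma), with 95% intervals that lay between -0.77 and 0.47. Without control replicate 4 they were -0.36, -0.25 and -0.35 (adjusted p = 0.637, 0.98 and 0.468). Its 2 probes tracked each other at r = 0.96 over 14 and over 15 arrays, so the variation between arrays was read alike by both.

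Tested for any difference among the 4 groups (limma F test), RXRA was the 1 member with an unadjusted p under 0.05 (adjusted p = 0.558), a level that 8.1% of all transcripts reached. Leaving out control replicate 4, RARB (adjusted p = 0.209) and RXRA (adjusted p = 0.244) had an unadjusted p under 0.05, as did 15.7% of transcripts. The interaction of the agents, the combined change minus the sum of the single ones, was -0.24 ± 0.25 for RXRA (adjusted p = 0.965), -0.18 ± 0.38 for RARB (adjusted p = 0.966) and -0.10 ± 0.21 for RARG (adjusted p = 0.966). For RXRB it was 0.34 ± 0.65 (adjusted p = 0.965) and for NRIP1 0.08 ± 0.37 (adjusted p = 0.984). Without control replicate 4 the interaction was -0.07 for RXRA, 0.11 for RARB, 0.02 for RARG, -0.28 for RXRB and 0.26 for NRIP1, so 3 of the 5 signs turned. None of the 5 had an unadjusted p under 0.05 in either fit.

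Likeness across the 14 arrays without control replicate 4 was taken as Pearson's r, a description over arrays that share slides and treatments. NRIP1 was most like NM_020342 over all transcripts (r = 0.98) and like LCOR, a corepressor of liganded receptors, among the listed genes (r = 0.91), and with all 15 arrays these were 0.98 and 0.92. RARB was most like NM_004432 (r = 0.91, and 0.92 over 15) and, of the listed genes, the coactivator NCOA3 (r = 0.75, and 0.78 over 15). NCOA3 and RARB both were not well above background on some arrays. RARG was most like NM_138473 (r = 0.90, but -0.65 over 15 arrays), with COL1A1 the closest listed gene (r = 0.66, and 0.49 over 15). RXRA was most like ENST00000467600 (r = 0.93, and -0.26 over 15), with CRABP2, which delivers retinoic acid to RARs, the closest listed gene (r = 0.67, and 0.76 over 15). RXRB was most like NM_004335 (r = 0.88, and 0.05 over 15), and NR5A1 was its closest listed gene (r = 0.73, and -0.41 over 15). Among the members, RARB and RARG correlated at -0.63, RARB and NRIP1 at 0.66, and RXRA and RXRB at 0.02. Over 15 arrays these were -0.02, 0.71 and -0.70, so the first and the last rest on whether control replicate 4 is included.

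Of 13 receptors that pair with RXR, 11 were on the array and 9 were tested, and none had an adjusted p under 0.05. NR1I2, a receptor for many drugs, and PPARG were not well above background on any array. The oxysterol receptor NR1H3 (LXR alpha) read -0.59, -0.64, -0.73 and -0.91 in control. Under combined treatment it read -0.21, -0.29 and -0.04, without overlap, as did 12.7% of all transcripts in that direction. Its log2 change was 0.54 ± 0.13 under combined treatment (1.45-fold, adjusted p = 0.213, limma) and 0.47 without control replicate 4 (adjusted p = 0.148). Under mitotane it was 0.29 ± 0.12 (adjusted p = 0.713) and 0.23 without that array (adjusted p = 0.616). Combined treatment exceeded 9-cisRA by 0.42 (adjusted p = 0.314).

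The orphan receptors NR4A1 and NR4A2, immediate-early genes that bind DNA with RXR, read lower under 9-cisRA, though neither passed the adjusted threshold. NR4A2 read 0.19, -1.31, -0.25 and -1.76 in control and -2.15, -2.01, -1.67 and -2.53 under 9-cisRA, so 1 control, replicate 4, lay within the treated range. The log2 change was -1.31 ± 0.41 (adjusted p = 0.744, limma) and -1.63 without control replicate 4 (adjusted p = 0.98). Both had an unadjusted p under 0.05, as did 3.51% and 4.34% of all transcripts. NR4A2 also differed by -1.18 ± 0.44 under combined treatment (adjusted p = 0.283) and by -0.84 ± 0.41 under mitotane (adjusted p = 0.713). Without that array these were -1.50 (adjusted p = 0.163) and -1.17 (adjusted p = 0.616). The unadjusted p for mitotane was then under 0.05 too, as for 7.68% of all transcripts. NR4A1, named after its values were seen, read -2.62 to -1.48 in control and -3.38 to -3.02 under 9-cisRA, without overlap, as did 0.727% of all transcripts in that direction. Its log2 change was -1.18 ± 0.37 (adjusted p = 0.744), against -0.29 under mitotane (adjusted p = 0.783) and -0.39 under combined treatment (adjusted p = 0.663). The NR4A1 changes without control replicate 4 were -1.22 (adjusted p = 0.98), -0.32 and -0.43. In the 9 tested partners as a whole, the median change was 0.16, 0.06 and 0.10 for mitotane, 9-cisRA and combined treatment, beside 0.09, 0.03 and 0.09 over all transcripts. Without control replicate 4 the partners' medians were -0.02, -0.03 and -0.02, so all 3 signs turned, beside 0.08, 0.02 and 0.08 over all transcripts.

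Of 15 coregulators, 13 were on the array and tested, and none passed the adjusted threshold. For mitotane 0 of 13 had an unadjusted p under 0.05, against 6.04% of all transcripts. CTBP2, a corepressor, had the smallest p (log2 change 0.34, adjusted p = 0.713, limma). Without control replicate 4 CTBP2 was at 0.13 (adjusted p = 0.666), and the coactivator NCOA2 was the 1 of 13 with an unadjusted p under 0.05, at 0.47 (adjusted p = 0.616). NCOR1, the corepressor of unliganded RARs, was the 1 of 13 for 9-cisRA, at -0.41 ± 0.18 (adjusted p = 0.744), against 3.51% of all transcripts. It was -0.23 (adjusted p = 0.98) without control replicate 4, with an unadjusted p above 0.05. GPS2, a subunit of the NCOR complex, was the 1 of 13 for combined treatment, at 0.46 ± 0.19 (adjusted p = 0.314), against 13.8% of all transcripts. Without control replicate 4 it was 0.34 (adjusted p = 0.293), with an unadjusted p above 0.05. In that fit CREBBP, at 0.38, and NCOA3, at -1.23, were among the coregulators with an unadjusted p under 0.05 for combined treatment (adjusted p = 0.184 and 0.225). With all arrays NCOA3 was at -0.82, and leaving out combined replicate 4 alone brought it to -0.13, so its size leans on that array. NCOA3 was well above background on 13 arrays. NCOA2, CREBBP and NCOA3 were named after their values were seen. Without control replicate 4, the share of all transcripts called was 7.68% for mitotane, 4.34% for 9-cisRA and 18.3% for combined treatment. The median changes of the 13 were -0.04, -0.08 and 0.08, beside 0.09, 0.03 and 0.09 over all transcripts. Without control replicate 4 they were 0.05, -0.03 and 0.04, beside 0.08, 0.02 and 0.08.

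Of 9 genes known to respond to retinoids, 8 were on the array and 6 were tested. CYP26A1, the hydroxylase that clears retinoic acid, read higher under combined treatment than on any other array. It read -3.16, -3.30, -3.35 and -3.51 in control and -2.80, -3.52, -3.21 and -3.32 under 9-cisRA. Mitotane arrays read -3.26, -3.12, -2.99 and -3.59, and combined arrays -2.63, -2.55 and -2.64. All combined arrays exceeded all control arrays in 12.7% of all transcripts, all mitotane arrays in 6.54% and all 9-cisRA arrays in 11.6%. The log2 change of CYP26A1 under combined treatment was 0.73 ± 0.18 (1.65-fold, adjusted p = 0.213, limma) and 0.67 without control replicate 4 (adjusted p = 0.163). Both had an unadjusted p under 0.05, as did 13.8% and 18.3% of all transcripts. Under 9-cisRA alone the change was 0.12 ± 0.17 (adjusted p = 0.782), and under mitotane 0.09 ± 0.17 (adjusted p = 0.848), against 0.06 and 0.03 without that array. Combined treatment exceeded 9-cisRA by 0.61 (adjusted p = 0.298) and mitotane by 0.64 (adjusted p = 0.85), and the interaction was 0.52 ± 0.25 (adjusted p = 0.965). Leaving out control replicate 4, the interaction was 0.58 (adjusted p = 0.69), with an unadjusted p under 0.05, as 6.94% of all transcripts had.

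CYP26B1, a related hydroxylase, had a log2 change of 0.66 ± 0.25 under mitotane (adjusted p = 0.713, limma), 0.44 without control replicate 4 (adjusted p = 0.616), and mitotane replicate 3, at -3.75, lay among the controls. TGM2, a transglutaminase induced by retinoids in many cells, had the smallest p of the 6 for 9-cisRA (log2 change 0.44, adjusted p = 0.744), and 0.16 without control replicate 4 (adjusted p = 0.98). In both fits 0 of 6 had an unadjusted p under 0.05 there, against 3.51% and 4.34% of all transcripts. The median of the 6 was 0.21 for mitotane, 0.15 for 9-cisRA and 0.31 for combined treatment, beside 0.09, 0.03 and 0.09 over all transcripts. Without control replicate 4 the medians of the 6 were 0.21, 0.12 and 0.29, beside 0.08, 0.02 and 0.08 over all transcripts.

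**Figure D4:**
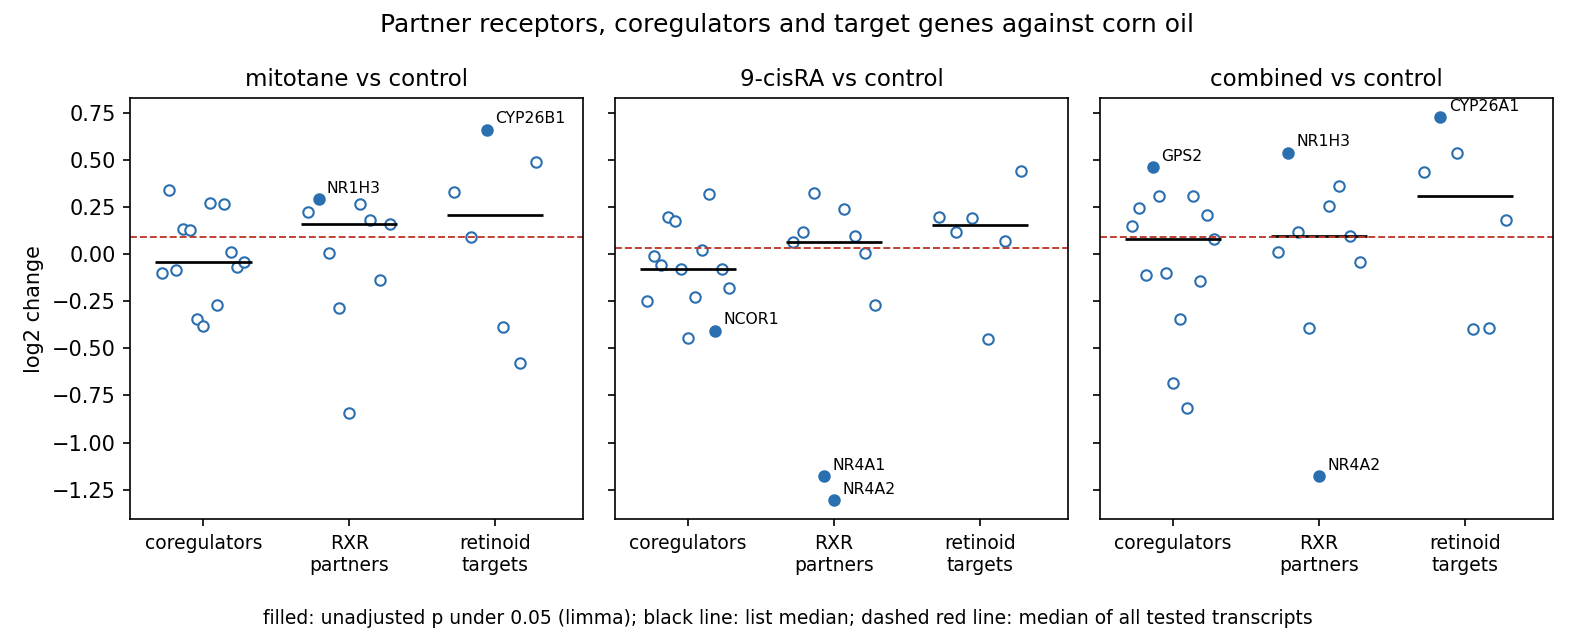
Log2 change against corn oil (y) of each tested coregulator, RXR partner and retinoid-responsive gene (x), with filled points for an unadjusted p under 0.05 in limma with all 15 arrays, a black line for the list's median and a dashed red line for the median of all tested transcripts. NR4A1 and NR4A2 lie lowest under 9-cisRA, and CYP26A1 and NR1H3 are the highest of their lists under combined treatment.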

How the data were processed

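The authors deposited Agilent Feature Extraction scanner output, whose processed signal is a background-subtracted intensity not scaled between arrays, per the file headers (version 11.0.1.1; 11.0.1 per the submitters' processing notes). Their deposited value table holds log2 values that appear centred per probe over its 16 arrays, and the sources used here do not give its processing. Here each log2 processed signal was set relative to the 75th percentile of its array (43118 spots, controls excluded), without outlier spots and with the spots of a probe averaged. Of several probes for an identifier, the one with the highest mean was used (29094 identifiers). A transcript needed 1 group with all arrays well above background, which 20216 had. Limma 3.58.1 (R 4.3.3) fitted the 4 groups together and was tested on simulated data. A bound compares the bright group's mean with the dim group's values, each raised to its array's lowest measurable signal. Plots used matplotlib.

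The files do not pair accessions with symbols and the reference at hand is of the mouse, so the symbols are those known for these human accessions. The normexp alternative (offset 50) used the median spot signal and background. Members and lists were chosen with earlier results of these data known. Named are every member, the gene of each list with the smallest p per comparison against control, and the most alike identifier and listed gene. Arrays of a slide deviated together (r over 0.1) in 7 of 21 pairs, with r from -0.27 to 0.37. Pairs from different slides were not set beside these, so they do not settle whether slides pair the samples. The main fit had no slide term. The alternatives are given with their effect in the closing section.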

Additional observations from a re-analysis of the deposited data

Results flagged for a closer look

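In 42 sets of 4 arrays, formed from 14 genes of the lists and the members, chance would flag about 2.1 by the gap of 1 array from the rest, about 1 in 20 sets, and 3 were flagged. Every control set holds control replicate 4, so the sets are not independent and the expected number is only a rough guide. RARB on control replicate 4 read -5.81, with the nearest control at -4.73. RARG on control replicate 4 read -0.22, with the nearest control at 0.26. RARA (NM_001024809) on mitotane replicate 3 read -0.52, with the nearest mitotane array at -0.85. Listed genes outside these sets could stand apart on control replicate 4 too, such as RARRES3 at 0.25, with the nearest control at -2.29.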

How the results depend on the processing

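Counts of transcripts with an adjusted p under 0.05 stayed at 0 in most alternatives. Array weights in limma were 0.035 for control replicate 4 and 8.81 for control replicate 2, the largest. They gave 3 for mitotane, 4 for 9-cisRA and 5788 (28.6%) for combined treatment against control. For combined against mitotane they gave 103, and for combined against 9-cisRA 2003. Combined against mitotane also had 1 in the value table without control replicate 4, and leaving out each array gave 0 to 1. With array weights, combined against control was past the threshold for RARB (-0.74), RARG (0.29), RXRA (0.31), NR1H3 (0.42) and CYP26A1 (0.69), and RXRA was also past it for combined against 9-cisRA (0.34). With the slide as a replicate block the counts were 0.

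Signs turned only for values short of the threshold, and the cause was not tested. For RARB under mitotane, quantile normalisation gave 0.039 and leaving out each array -0.32 to 0.093. For RXRB the value table without control replicate 4 gave 0.11 (mitotane), 0.24 (9-cisRA) and 0.18 (combined), array weights gave 0.042 for 9-cisRA, and leaving out each array gave -0.82 to 0.13, -0.71 to 0.24 and -0.86 to 0.083. Without both replicate 4 arrays RXRB was 0.13 (mitotane) and 0.24 (9-cisRA). Array weights gave -0.038 for RXRA and -0.0084 for TGM2 under 9-cisRA. For NRIP1 under 9-cisRA the further probe gave 0.00078 and leaving out each array -0.25 to 0.056, and under combined treatment -0.35 to 0.0048. For combined against mitotane, the slide as a replicate block gave 0.015 for RXRA, the value table gave 0.073 for RXRB and -0.097 for NRIP1 (with and without control replicate 4), and leaving out each array gave -0.086 to 0.022 (RXRA), -0.18 to 0.070 (RXRB) and -0.18 to 0.19 (NRIP1). For combined against 9-cisRA, NRIP1 without both replicate 4 arrays was 0.079, and leaving out each array gave -0.23 to 0.079. The interaction was 0.23 (RARB), 0.064 (RARG), 0.028 (RXRA) and -0.20 (RXRB) with array weights, 0.17, 0.074 and -0.17 (RARB, RARG, RXRB) in the value table without control replicate 4, and 0.26, 0.041 and -0.42 without both replicate 4 arrays. NRIP1's interaction was -0.049 in the value table with 16 arrays. Leaving out each array, interactions ran from -0.30 to 0.11 (RARB), -0.18 to 0.023 (RARG), -0.28 to 0.67 (RXRB) and -0.10 to 0.27 (NRIP1). RARB and RXRG are limited by signal over background, and the number of arrays limits the precision.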
